A study of Mus musculus with 6 samples.

Results

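The 10 genes described here serve the making of new fatty acids from cytosolic carbon, measured in mouse adipose tissue: *Slc25a1*, *Acly* and *Acss2* supply acetyl-CoA, *Acaca* and *Acacb* make malonyl-CoA, *Fasn* builds the chain, *Srebf1*, *Mlxipl* and *Thrsp* regulate the pathway, and *Pnpla3* is a lipogenic target. Reporters were taken by symbol: every one whose deposited symbol was one of these names or an older synonym (Wbscr14 for *Mlxipl*, Adpn for *Pnpla3*). This gave 13 reporters, 4 for *Acaca* and 1 for each of the other 9 genes. All 10 genes could be tested, among 25739 genes tested in all. The samples were 3 of genotype ob/ob and 3 of genotype ob/+, all adipose tissue (eWAT in the labels) taken at 9 weeks of age on the genetic background C57BLKS/J. Mice with the ob mutation on both copies of *Lep* make no working leptin and become obese. The ob/+ mice are the lean controls and carry the mutation on 1 copy, so no group was free of it. Neither the sex nor whether each sample came from 1 animal was given in the labels, so the spread behind a p-value is that between samples and may be technical.

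Each sample was hybridised in Cy5 to 1 of 6 two-colour arrays, against a pool in Cy3 that the labels give as the combined ob/+ replicates. Values are log2 ratios of sample over pool, so 0 is the level of the pool, and differences are ob/ob minus ob/+. A gene passed the test at an adjusted p under 0.05 (limma, Benjamini-Hochberg over 39407 reporters), and a gene with several reporters was represented by the brightest. Precision is limited by having 3 arrays per group. Median sample intensity was 0.11 to 0.12 on the ob/ob arrays and 0.13 to 0.15 on the ob/+ arrays in the authors' units. Correlations across all reporters were 0.83 to 0.893 between ob/ob arrays and -0.308 to 0.0651 between ob/+ arrays. Ratios to a pool of the same samples average near 0 and oppose each other by construction. The correlations between ob/+ arrays therefore say nothing on how alike those replicates were. The ob/ob replicate 1 gave the highest ob/ob value of 9 of the 10 genes, so their fold changes and the counts of genes that passed are also given without it.

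In the textbook pathway, citrate leaves the mitochondrion through the carrier Slc25a1 and is split by ATP citrate lyase, Acly, to acetyl-CoA. Acetate is a further source, activated by the cytosolic synthetase Acss2. Acetyl-CoA carboxylase makes malonyl-CoA, which fatty acid synthase joins into palmitate with electrons from NADPH. The transcription factor SREBP-1, encoded by *Srebf1*, and ChREBP, encoded by *Mlxipl*, raise transcription of these enzymes when insulin or glucose is plentiful. SREBP proteins act at promoters together with NF-Y, which binds CCAAT, and Sp1, which binds GGGCGG.

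Promoter sequence is shown for the genes of acetyl-CoA supply, because *Slc25a1* and *Acss2* passed the test and *Acly*, which acts directly after *Slc25a1*, did not. Each line is the 250 bases before the RefSeq start site, read 5′ to 3′ on the gene's strand (GRCm38.p6). Capitals mark CCAAT and GGGCGG, on either strand, so that ATTGG and CCGCCC are the same motifs on the other strand. The *Acss2* window is chr2:155517793-155518042 on the plus strand, and those of *Slc25a1* (chr16:17928220-17928469) and *Acly* (chr11:100528001-100528250) are on the minus strand.
Acss2: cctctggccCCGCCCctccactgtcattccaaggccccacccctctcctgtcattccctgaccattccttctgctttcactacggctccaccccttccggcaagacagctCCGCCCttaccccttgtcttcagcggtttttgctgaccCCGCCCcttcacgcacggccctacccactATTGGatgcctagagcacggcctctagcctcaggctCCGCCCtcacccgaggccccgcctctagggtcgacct
Slc25a1: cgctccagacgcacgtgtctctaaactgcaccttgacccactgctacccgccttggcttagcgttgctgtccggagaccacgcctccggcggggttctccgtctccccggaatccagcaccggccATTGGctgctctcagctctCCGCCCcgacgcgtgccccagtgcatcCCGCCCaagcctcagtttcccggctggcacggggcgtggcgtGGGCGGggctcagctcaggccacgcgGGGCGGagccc
Acly: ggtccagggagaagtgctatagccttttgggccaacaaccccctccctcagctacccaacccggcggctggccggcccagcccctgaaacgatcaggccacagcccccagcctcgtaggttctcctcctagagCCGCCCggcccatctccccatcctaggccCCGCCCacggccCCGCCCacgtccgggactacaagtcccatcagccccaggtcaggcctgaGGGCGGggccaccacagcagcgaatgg
All 3 windows held GGGCGG 4 times. CCAAT occurred once in *Acss2*, once in *Slc25a1* and not in *Acly*, and it was also in windows of *Fasn*, *Thrsp*, *Pnpla3*, *Acacb*, *Mlxipl* and *Srebf1*, which did not pass the test. The 10 genes had 13 such windows, of which 9 held CCAAT and 7 held GGGCGG, in 5 cases both. *Srebf1* and *Mlxipl* had more than 1 window, and some windows lay inside the gene. That of *Acaca* began at base 84195188 of chromosome 11, where the gene starts at 84129635. That of *Acacb* began at base 114165268 of chromosome 5, where the gene starts at 114146321. Among all 32851 mouse windows of this length, CCAAT was in 33.85%, GGGCGG in 32.74% and both in 11.01%. The E-box CACGTG, which the carbohydrate-responsive factors recognise as a pair, was in 2 of the 13 windows and 6.02% of all. The sterol element written as TCACNCCAC was in 1 of the 13 and 1.05% of all. These matches describe letters, not binding, and the motifs did not overlap in the 3 windows printed.

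*Acss2* rose 2.34-fold and *Slc25a1* 1.84-fold in ob/ob, and the other 8 genes did not pass the test. The count was 2 higher and 0 lower of 10, where 12.4% of all genes tested were higher and 12.1% lower, 24.6% in either direction, so the share of the 10 that passed was close to that of genes at large. At an unadjusted p under 0.05, 3 genes passed, of which *Acaca* was lower, where 37.5% of all genes passed. The median log2 fold change of the 10 was 0.309, against 0.00335 for all genes, and 0.098 without ob/ob replicate 1. The ob/ob and ob/+ arrays did not overlap for 3 of the 10, *Acss2*, *Slc25a1* and *Fasn*, all higher in ob/ob; 40.0% of all genes with values on every array were apart in this way, 20.2% with ob/ob higher and 19.8% with ob/ob lower. Without ob/ob replicate 1 the same 2 genes passed the adjusted test, and 4 passed at an unadjusted p under 0.05, *Acss2* and *Slc25a1* higher and *Acacb* and *Thrsp* lower, against 36.5% of all genes. The groups were then apart for 5 of the 10, *Acacb* and *Thrsp* lower beside the 3 above, against 48.2% of all genes.

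Cell markers differed between the genotypes. Of 10 macrophage markers 9 were higher in ob/ob, with a summed sample intensity of 72.4 to 128.0 on the ob/ob arrays and 37.7 to 42.6 on the ob/+ arrays. Of 6 adipocyte markers tested 3 were lower and none higher, with sums of 31.6 to 40.9 in ob/ob and 61.7 to 74.3 in ob/+. *Adipoq*, *Fabp4* and *Plin1*, from the adipocyte list, had mean intensities over both channels of all arrays of 24.8, 11.9 and 7.74. The epididymal epithelium markers summed to 2.31 to 2.83 in ob/ob and 22.1 to 50.1 in ob/+, with 3 of 10 lower. Motile cilia markers summed to 1.20 to 1.84 in ob/ob and 4.41 to 8.93 in ob/+ (4 of 6 lower). Mesothelium markers summed to 4.55 to 9.67 in ob/ob and 13.3 to 16.2 in ob/+ (2 of 6 lower). Bright genes weigh most in such sums: *Adgrg2*, *Crisp1* and *Crisp3* (mean intensities 10.7, 9.14 and 5.98) in the epididymal list and *Foxj1* (3.56) for cilia. Log2 fold changes of *Adam28*, *Pax2* and *Cst8* in the epididymal list were 0.02, 0.01 and 0.06. The cilia marker *Tekt1* had 0.68 (limma adjusted p = 0.178). No marker of these lists lay at or under 0.02 on every array. In bulk tissue, fewer cells of a type and less RNA per cell cannot be told apart, and the part of these shifts in the results below was not tested.

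**Figure D1:**
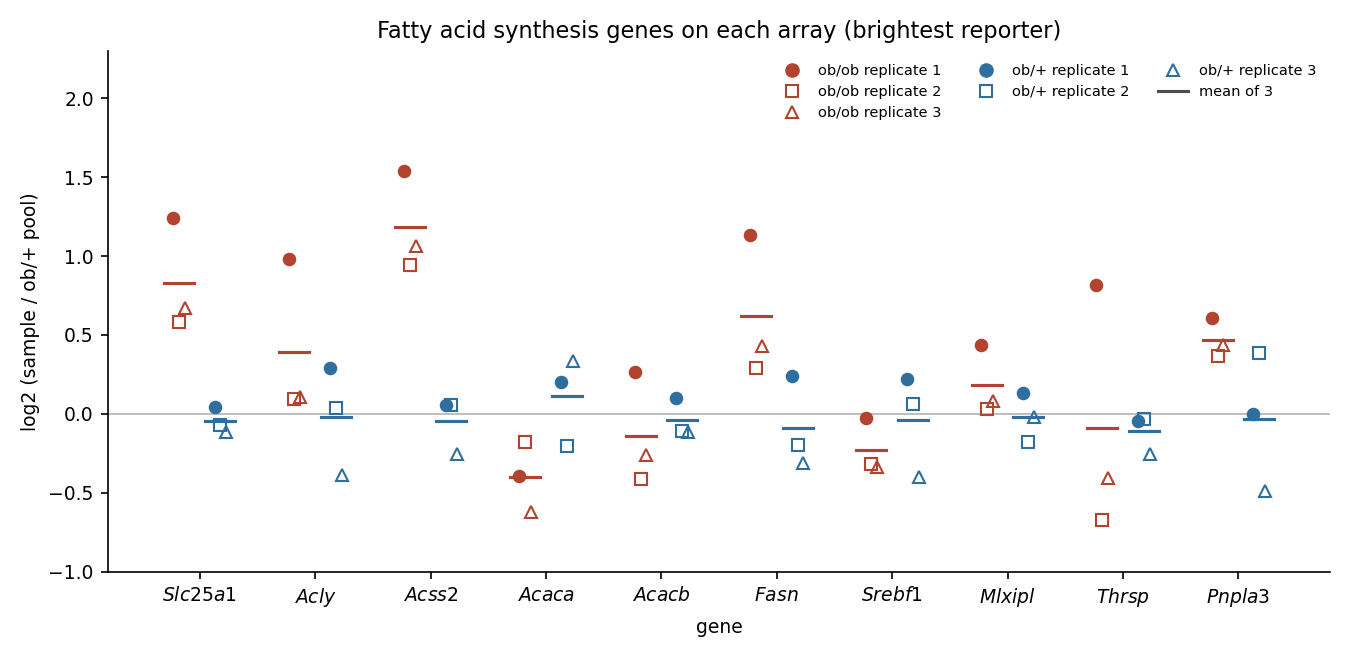
Log2 ratio of sample over the ob/+ pool (vertical axis) for each of the 10 genes, by array; bars are the means of the 3 arrays of a group. The ob/ob arrays (red, left) lie wholly above the ob/+ arrays (blue, right) for *Slc25a1*, *Acss2* and *Fasn*, and ob/ob replicate 1 (filled circle) is the highest ob/ob array in every gene but *Acaca*.

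*Slc25a1* encodes the mitochondrial citrate carrier. Its log2 ratios were 1.24, 0.58 and 0.67 in ob/ob replicates 1 to 3, against 0.04, -0.07 and -0.11 in the ob/+ replicates. All ob/ob arrays lay above all ob/+ arrays. Sample intensities, in rising order and not by replicate, were 0.96, 0.97 and 1.42 in ob/ob and 0.49, 0.59 and 0.66 in ob/+. The log2 fold change was 0.88 ± 0.19 (SE, n = 3 per group; 95% interval 0.38 to 1.38; limma adjusted p = 0.0372). It was 0.67 without ob/ob replicate 1 and still passed (adjusted p = 0.012). It did not pass without ob/ob replicate 2 or 3 or any 1 of the ob/+ replicates, where the adjusted p reached 0.123.

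*Acly* encodes the lyase that splits the exported citrate. Its log2 ratios were 0.98, 0.09 and 0.11 in ob/ob, against 0.29, 0.04 and -0.39 in ob/+. Replicate 1 alone stood high in ob/ob; the other ob/ob arrays lay inside the ob/+ range. The reporter was bright, in rising order at 13.32, 15.07 and 26.62 in ob/ob and 9.79, 13.82 and 16.36 in ob/+. The log2 fold change of 0.41 ± 0.32 (95% interval -0.42 to 1.25, adjusted p = 0.453) did not pass, and it was 0.12 without ob/ob replicate 1 (adjusted p = 0.791).

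*Acss2* encodes the enzyme that makes acetyl-CoA from acetate in the cytosol and nucleus. Its log2 ratios were 1.54, 0.94 and 1.06 in ob/ob, against 0.05, 0.06 and -0.25 in ob/+. Every ob/ob array exceeded every ob/+ array by a wide margin, the lowest ob/ob value being 0.94 and the highest ob/+ value 0.06. Intensities in rising order were 0.48, 0.50 and 0.67 in ob/ob and 0.21, 0.26 and 0.27 in ob/+. These are low enough that rounding can shift the log2 fold change by up to 0.10. The log2 fold change was 1.23 ± 0.19 (95% interval 0.73 to 1.73, adjusted p = 0.0154), the highest of the 10 genes. Without ob/ob replicate 1 it was 1.05 and passed (adjusted p = 0.0186). Without ob/+ replicate 1, ob/+ replicate 3 or ob/ob replicate 3 it missed the threshold, at adjusted p = 0.0549, 0.0567 and 0.0563.

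**Figure D2:**
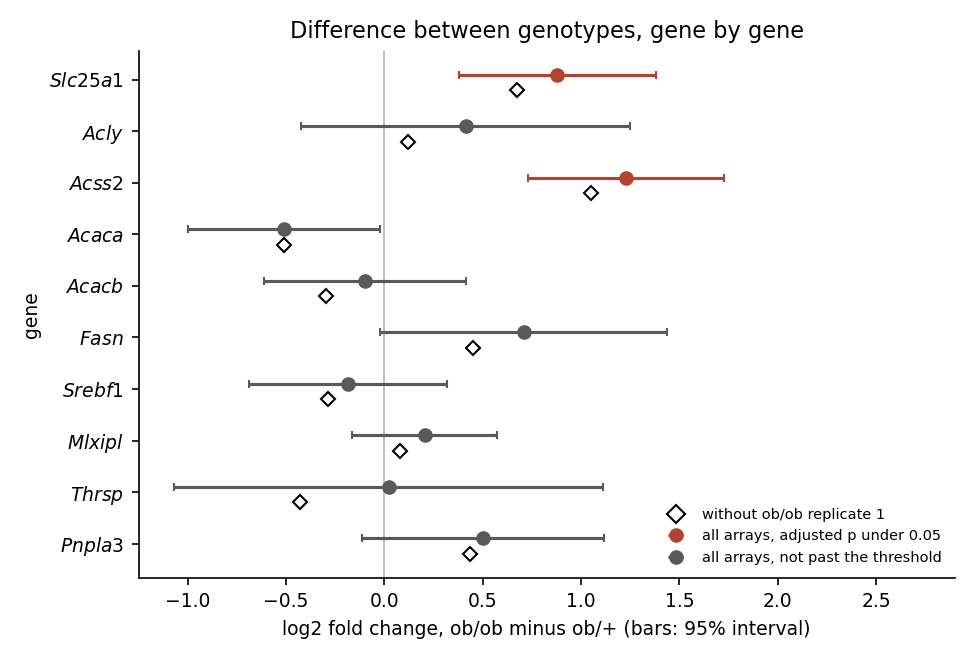
Log2 fold change of each gene, ob/ob minus ob/+, with its 95% interval (horizontal axis); red marks an adjusted p under 0.05 in limma and open diamonds the value without ob/ob replicate 1. The interval lies wholly above 0 for *Slc25a1* and *Acss2* and wholly below 0 for *Acaca*, whose adjusted p was 0.137.

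The carboxylases did not pass the test by their brightest reporters. *Acaca* encodes the cytosolic acetyl-CoA carboxylase of fatty acid synthesis. Its brightest reporter had log2 ratios of -0.40, -0.18 and -0.62 in ob/ob, against 0.20, -0.20 and 0.34 in ob/+. The groups overlapped through ob/ob replicate 2 and ob/+ replicate 2, which were nearly level. The log2 fold change was -0.51 ± 0.19 (95% interval -0.996 to -0.02, adjusted p = 0.137), and -0.51 without ob/ob replicate 1 (adjusted p = 0.269).

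*Acaca* had 3 further reporters, of which the second was lower in ob/ob like the brightest. The second reporter had log2 ratios of -0.34, -0.27 and -0.36 in ob/ob, against 0.19, -0.10 and 0.24 in ob/+. All its ob/ob arrays lay below all its ob/+ arrays and it passed the test, falling by 0.43 ± 0.10 on the log2 scale (adjusted p = 0.046). It passed without ob/+ replicate 2 (adjusted p = 0.0124) and missed the threshold without any other 1 of the arrays, at adjusted p of 0.106 to 0.143. With a floor of 0.02 on all intensities it had an adjusted p of 0.054. Of all reporters 20.9% passed, 10.7% higher and 10.2% lower. The third had 0.07, 0.14 and 0.06 in ob/ob, against 0.00, 0.00 and -0.04 in ob/+. Its ob/ob arrays lay above its ob/+ arrays by a small amount, 0.11 ± 0.03 (adjusted p = 0.097), which rounding can move by up to 0.12, so its direction is not settled. The fourth read 0.02 or 0.03 on every array and had a log2 fold change of 0, which rounding can move by up to 1.39, so it holds no usable measurement. The mean of all reporters gave *Acaca* -0.21 (adjusted p = 0.126). It includes the fourth reporter, whose value of 0 pulls it toward 0, and the third.

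The pool channel of the *Acaca* reporters also differed between the arrays of each genotype, although it is the same RNA by the labels. For the brightest reporter the pool read 0.25 to 0.40 on the ob/ob arrays and 0.46 to 0.47 on the ob/+ arrays. The second reporter's pool read 0.29 to 0.36 on the ob/ob arrays and 0.38 to 0.43 on the ob/+ arrays. The third's read 0.19 to 0.23 on the ob/ob arrays and 0.25 to 0.34 on the ob/+ arrays. Sample intensities of the brightest, in rising order, were 0.19, 0.26 and 0.30 in ob/ob and 0.40, 0.54 and 0.58 in ob/+. Taken from the sample channel alone, after quantile normalization, its log2 fold change was -0.89 and passed (adjusted p = 0.0454). The pool of the *Acacb* reporter was likewise lower, at 0.10 to 0.12 on the ob/ob arrays and 0.13 to 0.14 on the ob/+ arrays. The cause of the pool shift was not tested.

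**Figure D3:**
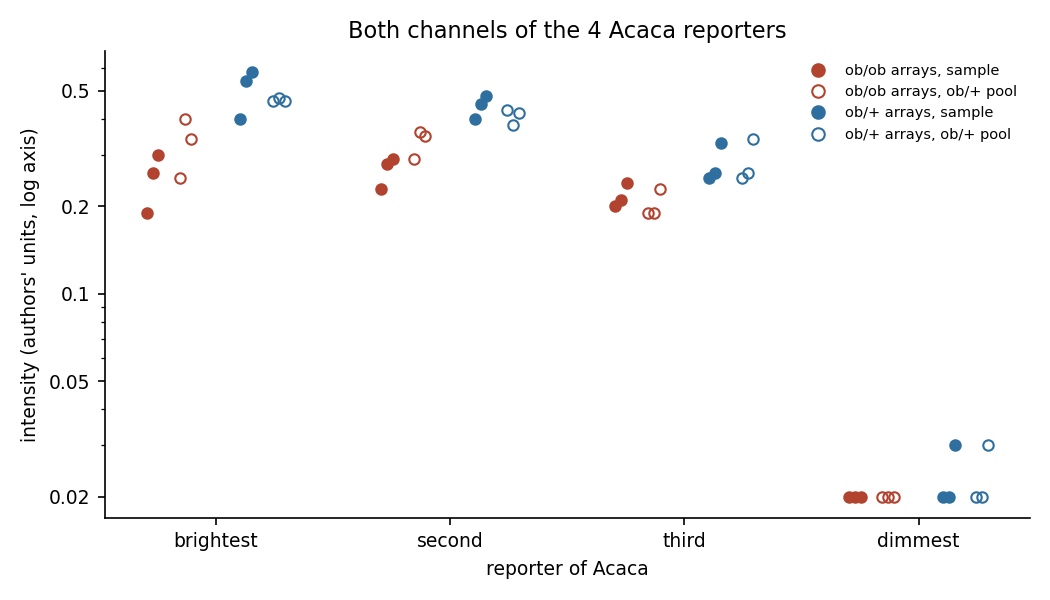
Intensity of both channels (log axis, authors' units) for the 4 *Acaca* reporters, by array; filled points are the sample and open points the ob/+ pool on the same arrays. For the first 3 reporters the pool reads lower on the ob/ob arrays (red) than on the ob/+ arrays (blue), and the dimmest reporter lies at 0.02 to 0.03 throughout.

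*Acacb* encodes the carboxylase of the outer mitochondrial membrane, whose malonyl-CoA restrains fatty acid oxidation. Its log2 ratios were 0.26, -0.42 and -0.26 in ob/ob, against 0.10, -0.11 and -0.12 in ob/+. Replicate 1 was the highest array of all and the other ob/ob replicates the lowest, so the ob/ob values enclosed those of ob/+. The reporter was dim, at 0.09 to 0.12 in ob/ob and 0.12 to 0.15 in ob/+, and rounding can move its log2 fold change by up to 0.24. That fold change was -0.10 ± 0.20 (95% interval -0.61 to 0.42, adjusted p = 0.784), and -0.30 without ob/ob replicate 1 (adjusted p = 0.141). The within-array difference of *Acacb* minus *Acaca* averaged 0.26 ± 0.46 in ob/ob and -0.15 ± 0.28 in ob/+ (SD, n = 3 each). The difference of 0.41 did not pass an exact two-sided permutation test (p = 0.3), in which 3 against 3 arrays cannot go below 0.1.

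*Fasn* encodes fatty acid synthase, which builds palmitate from malonyl-CoA. Its log2 ratios were 1.13, 0.29 and 0.43 in ob/ob, against 0.24, -0.20 and -0.31 in ob/+. The groups did not overlap, but the gap was narrow: the lowest ob/ob array stood at 0.29 and the highest ob/+ array at 0.24. Intensity averaged 8.83 ± 2.77 in ob/ob and 5.27 ± 1.21 in ob/+ (SD, n = 3 each), with 6.86 the lowest in ob/ob and 6.61 the highest in ob/+. The log2 fold change of 0.71 ± 0.28, or 1.63-fold, did not pass (95% interval -0.02 to 1.44, adjusted p = 0.166). It was 0.45 without ob/ob replicate 1 (adjusted p = 0.252).

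The regulators did not pass the test. *Srebf1* encodes SREBP-1, the insulin-responsive activator of the pathway, and its isoforms were not told apart. It had log2 ratios of -0.02, -0.31 and -0.34 in ob/ob, against 0.22, 0.06 and -0.40 in ob/+. The lowest value of all was an ob/+ array, and the groups overlapped. Its log2 fold change was -0.19 ± 0.19 (adjusted p = 0.537), and -0.29 without ob/ob replicate 1 (adjusted p = 0.439). Intensities were 15.18 to 16.88 in ob/ob and 14.72 to 22.63 in ob/+.

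*Mlxipl* encodes ChREBP, the glucose-responsive activator. The array values were 0.44, 0.03 and 0.08 in ob/ob, against 0.13, -0.18 and -0.02 in ob/+. Only ob/ob replicate 1 stood above all ob/+ arrays. The difference on the log2 scale was 0.20 ± 0.14 (95% interval -0.16 to 0.57, adjusted p = 0.39), and 0.08 without that array (adjusted p = 0.667).

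*Thrsp* encodes Spot 14, a small nuclear and cytosolic protein of lipogenic tissues. Across arrays the log2 ratio was 0.81, -0.67 and -0.41 in ob/ob, against -0.05, -0.03 and -0.25 in ob/+. The ob/ob arrays lay on both sides of the ob/+ arrays, 1 above and 2 below. *Thrsp* had the widest spread of the 10 genes, and its log2 fold change of 0.02 ± 0.42 had a 95% interval of -1.07 to 1.11. Without ob/ob replicate 1 it was -0.43, the opposite sign (adjusted p = 0.106).

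*Pnpla3* encodes a lipid droplet protein of the patatin-like family that SREBP-1 induces in liver. The log2 ratio was 0.60, 0.37 and 0.44 in ob/ob, against 0.00, 0.39 and -0.49 in ob/+. The ob/ob arrays were close together, and the overlap came from ob/+ replicate 2. Its log2 fold change was 0.50 ± 0.24 (95% interval -0.12 to 1.12, adjusted p = 0.22), and 0.43 without ob/ob replicate 1 (adjusted p = 0.394).

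Most of the 10 genes ordered the arrays alike within a genotype. In ob/ob, replicate 1 was highest in 9 genes and replicate 2 lowest in 8. In ob/+, replicate 1 was highest in 6 and replicate 3 lowest in 8. The shares of all genes that did so were 32.7% for ob/ob replicate 1 and 28.9% for ob/ob replicate 2. For ob/+ they were 23.4% for replicate 1 and 28.0% for replicate 3. Among genes with a mean intensity of at least 0.1 the shares were 38.4% for ob/ob replicate 1 and 34.5% for ob/+ replicate 3. The excess of ob/ob replicate 1 over the mean of the other ob/ob arrays was 1.35 for *Thrsp*, 0.88 for *Acly*, 0.77 for *Fasn* and 0.62 for *Slc25a1*. It was 0.60 for *Acacb*, 0.54 for *Acss2*, 0.38 for *Mlxipl*, 0.30 for *Srebf1*, 0.20 for *Pnpla3* and 0.01 for *Acaca*. The same array had the lowest macrophage median, at 0.762 against 1.38 and 1.30 in ob/ob replicates 2 and 3, and the highest adipocyte median, at -0.53 against -1.05 and -0.82. Whether these differences bear on each other was not tested.

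Genes around the core moved in both directions, and their counts can be set beside the 12.4% of all genes that were higher and 12.1% that were lower. NADPH supply had 4 of 8 tested genes higher and 0 lower, with a median log2 fold change of 0.64. *Pgd*, the second dehydrogenase of the pentose phosphate pathway, rose by 1.52 ± 0.19 on the log2 scale (adjusted p = 0.00881), and *G6pdx*, the first, by 0.79 ± 0.12 (adjusted p = 0.0147). *Rpe* rose by 0.56 and *Pgls* by 0.20, but with all reporters of a gene averaged *Rpe* had 0.30 and *Pgls* -0.30. *Me1*, malic enzyme, which also yields NADPH, had 1.09 ± 0.33 and did not pass (adjusted p = 0.0851); it is named after its value was seen.

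Elongation and desaturation had 4 higher, 3 lower and 6 not past the test of 13, with a median of 0.215. *Scd2*, a stearoyl-CoA desaturase, rose by 1.73 ± 0.24 (adjusted p = 0.012), while its relative *Scd1* had -0.02 ± 0.33. The desaturases of polyunsaturated fatty acids fell: *Fads2* by 1.87 ± 0.25 (adjusted p = 0.011) and *Fads1* by 0.83 ± 0.15 (adjusted p = 0.0217). *Hsd17b12*, the ketoacyl reductase of elongation, rose by 0.64 and *Fads3* by 0.80. *Hacd3* rose by 0.39 and *Elovl7* fell by 0.34. The *Hacd3* reporter was dim, at a mean intensity of 0.0517, so its value is limited by the 0.01 step of the intensities. With all reporters averaged, *Elovl7* had -1.23 and *Fads2* -1.03, and both passed. *Elovl6*, which elongates palmitate, had 0.99 ± 0.41 and did not pass (adjusted p = 0.176). Without ob/ob replicate 1 it had 0.55 and passed (adjusted p = 0.0366), in 1 of the 6 fits that left out 1 array. *Scd1* and *Elovl6* are named after their values were seen.

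Upstream, pyruvate to citrate had 0 of 12 higher and 2 lower, with a median of -0.143. *Pdk2*, a kinase that inhibits pyruvate dehydrogenase, fell by 1.83 ± 0.15 (adjusted p = 0.00422). *Pdk4*, another such kinase, had -1.18 ± 0.35 and did not pass (adjusted p = 0.0772). Without ob/ob replicate 1 it had -1.505 and passed (adjusted p = 0.0319), in 1 of the 6 fits that left out 1 array. Without ob/ob replicate 1 the list had 4 lower. The kinases act against the enzyme complex that makes mitochondrial acetyl-CoA, so the list holds genes of opposite action.

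Of 16 lipogenic regulators, 2 were higher and 2 lower, with a median of 0.00186. *Insig1*, an endoplasmic reticulum protein that retains SREBPs and is itself an SREBP target, rose by 2.36 ± 0.14 (adjusted p = 0.00209), while *Insig2* fell by 0.52 ± 0.10 (adjusted p = 0.027). *Mlx*, the partner of ChREBP, rose by 0.35 and *Nr1h2*, the liver X receptor beta, fell by 0.21, but *Nr1h2* had -0.08 with all reporters averaged and did not pass (adjusted p = 0.354). Among 13 genes that control the carboxylases and fatty acid synthase, 2 were higher and 0 lower, with a median of 0.0815. They were *Hlcs*, which attaches biotin to the carboxylases, at 0.54 ± 0.09 (adjusted p = 0.0205; 0.25 with all reporters averaged), and *Prkab2*, a subunit of AMP-activated kinase, at 0.33 ± 0.06 (adjusted p = 0.0199). *Mid1ip1*, a relative of *Thrsp* that activates the carboxylase, had 0.67 ± 0.20 (adjusted p = 0.0778).

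Of 8 carbohydrate response targets tested, 1 was higher, 4 were lower and 3 did not pass the test. *Txnip*, a thioredoxin-binding protein, fell by 1.25 ± 0.20 (adjusted p = 0.0249), and *Slc2a4*, the insulin-responsive glucose transporter, by 0.86 ± 0.21 (adjusted p = 0.0454). *Tkfc* fell by 0.78 and *Khk*, fructokinase, by 0.43, while *Arrdc4*, a relative of *Txnip*, rose by 0.36. The *Txnip* fit had values on 3 ob/ob and 2 ob/+ arrays.

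**Figure D4:**
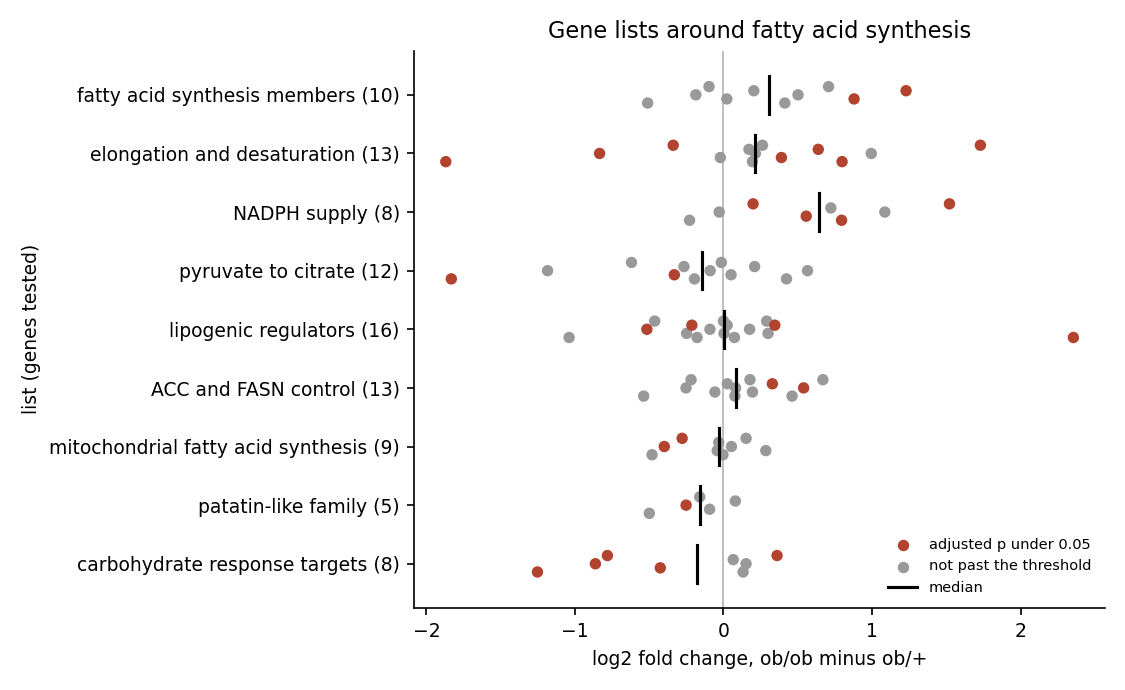
Log2 fold change, ob/ob minus ob/+ (horizontal axis), of each tested gene in 9 lists; red marks an adjusted p under 0.05 in limma and the vertical bar the median. NADPH supply has the highest median, 0.64, and the carbohydrate response targets the lowest, -0.18.

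Of the 27 list genes outside the core that passed the test, 6 passed in every fit that left out 1 array: *Hsd17b12*, *Insig1*, *Pdk2*, *Pgd*, *Pnpla1* and *Tkfc*. The other 21 missed the threshold without 1 or more arrays, at an adjusted p of up to 0.142 (*Slc2a4*). Of the 27, leaving out ob/ob replicate 1, 2 or 3 lost 8, 12 and 17, and leaving out ob/+ replicate 1, 2 or 3 lost 18, 10 and 16. A single array decided 2 of them, *Fads2* without ob/ob replicate 3 alone (adjusted p = 0.0524) and *Scd2* without ob/+ replicate 1 alone (adjusted p = 0.0504). Without ob/ob replicate 1, NADPH supply had 3 higher and 0 lower, and elongation and desaturation 3 higher and 1 lower. Lipogenic regulators and carbohydrate response targets each had 1 higher and 3 lower, and pyruvate to citrate 0 higher and 4 lower. The counts of the other lists around the core did not change.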

How the data were processed

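Adipose RNA from Trizol extracts was amplified in 2 rounds (labels' protocols). The submitters' processing notes name Agilent Feature Extraction 8.5.1.1. What the authors deposited were linear intensities of both channels, 97.45% of them in steps of 0.01, and log10 ratios per array. How background and normalization were handled is not given in the sources used here. That intensity table numbers samples differently from the labels, so its columns were assigned to groups only, and values by replicate came from the deposited log10 ratios. It calls the controls wt, and the design text speaks of db/db islets; the labels (ob/ob, ob/+, eWAT) were followed. In all, 6 columns of deposited per-array p-values were not used.

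Of 39507 reporters, 39407 had values on at least 2 arrays of each group. The test of log2(sample/pool) was two-sided, by lmFit and eBayes of limma 3.58.1 under R 4.3.3 (prior degrees of freedom 0.86). Symbols of 3188 reporters were updated. Intensities under 0.1 made up 42.0%. All members' reporters are named; of each other list, the genes that passed and up to 4 with the lowest p, except 1 gene that is not reported here. Members and lists were chosen with earlier results of these data known. The fit was tested on simulated data. Promoter windows (RefSeq, GRCm38.p6) were matched by symbol for 10 of 10 genes, some of them at start sites inside the gene. Python 3.11.15, scipy 1.17.1 and matplotlib 3.10.9 were used. Whether replicate numbers pair the samples was not settled, and the main fit did not pair them. The alternatives tried were the sample channel alone, quantile normalization, median-centring, filters on dim reporters, a floor, other priors, array weights, the deposited log10 ratios, a replicate block, all reporters of a gene, and leaving out each array.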

Additional observations from a re-analysis of the deposited data

How the results depend on the processing

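Over all reporters 8225 passed the test, against 750 after quantile normalization of the ratios, 3290 with the replicate block and 4124 to 6960 with 1 array left out. Of the 10 genes 2 passed, against 0 after quantile normalization (*Acss2* 0.87, adjusted p = 0.157; *Slc25a1* 0.65, adjusted p = 0.171) and 0 with the replicate block (*Acss2* 1.23, adjusted p = 0.053; *Slc25a1* 0.88, adjusted p = 0.0671). Quantile normalization gives all arrays 1 distribution; the cause of the losses was not tested. Whether the replicate numbers pair the samples is not settled. Over all reporters, same-numbered arrays had deviations that correlated at 0.0617, -0.0624 and 0.00346, and 1 of 3 correlated best with its own number. Such a check cannot exclude a pairing that bears on fewer genes. Among the 10 genes the block lowered the SE of all but *Acaca*. For *Fasn* it went from 0.28 to 0.10 (limma adjusted p = 0.0614 with the block), and for *Acaca* from 0.19 to 0.24. With 1 array left out, 0 to 2 of the 10 passed: 1 in the fits that lacked replicate 2 of either genotype, 0 in those that lacked ob/+ replicate 1 or replicate 3 of either genotype. The other settings gave 2, except the sample channel alone, which added *Acaca* (-0.89, adjusted p = 0.0454). *Thrsp* changed sign with the sample channel alone (-0.029), with array weights (-0.16) and with 1 array left out (-0.43 to 0.31), and *Acacb* (-0.30 to 0.041) and *Scd1* (-0.37 to 0.18) did so with 1 array left out. *Pgls* changed sign, to -0.30 (adjusted p = 0.0132), with all reporters averaged. The difference of *Acacb* minus *Acaca* was 0.21 to 0.66 with 1 array left out, and 0.11 over all reporters. Of the 27 list genes that passed, 27 missed the threshold after quantile normalization and 21 with the replicate block. Some calls were gained: *Me1*, *Mid1ip1* and *Pdk4* passed with either filter on dim reporters and with an intensity trend and robust prior. Their limma adjusted p was 0.0236 to 0.0479 in these settings. *Pdk4* also passed with array weights (adjusted p = 0.0431). The second *Acaca* reporter (-0.43) did not pass after quantile normalization (-0.45, adjusted p = 0.359), with the replicate block (adjusted p = 0.135) or with the floor (adjusted p = 0.054). Dim reporters (*Acacb* and 2 of *Acaca*, and outside the 10 genes such reporters as those of *Hacd3* and *Myh4*) are limited by the 0.01 step.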

Other observations

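Fatty acid synthesis also runs in mitochondria, where it makes the precursor of lipoic acid. Of 9 genes of that pathway tested, 0 were higher and 2 lower in ob/ob, with a median log2 fold change of -0.03. *Mcat*, the mitochondrial malonyltransferase, fell by 0.40 ± 0.09 (adjusted p = 0.0361), and *Lipt1*, a lipoyl transferase, fell by 0.28 ± 0.05 (adjusted p = 0.0185). Both missed the threshold when 1 array was left out, at an adjusted p of up to 0.115 and 0.0668. *Acsf3*, the mitochondrial malonyl-CoA synthetase, had -0.48 ± 0.17 (adjusted p = 0.123).

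Of 5 relatives of *Pnpla3* in the patatin-like family tested, 0 were higher and 1 lower, with a median of -0.16. *Pnpla1*, known for its part in the skin's lipid barrier, fell by 0.25 ± 0.04 (adjusted p = 0.013) at a low mean intensity of 0.149. *Pnpla7*, a lysophospholipase, had -0.50 ± 0.13 (adjusted p = 0.0584). *Pnpla2*, the adipose triglyceride lipase, was not tested because values were missing, and on the arrays with values its mean log2 ratio was -0.84 in ob/ob.

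Of 8 skeletal muscle markers 2 were higher in ob/ob, *Pvalb* by 4.58 ± 0.15 and *Myh4* by 0.63 ± 0.10 on the log2 scale. *Myh4* was dim, at a mean intensity of 0.0742. The other 6 did not pass the test. Their log2 fold changes were 0.57 (*Acta1*), 0.195 (*Tnnt3*), 0.01 (*Ckm*), -0.04 (*Myh1*), -0.11 (*Mylpf*) and -1.77 (*Tnnc2*). The 8 markers summed to 4.49 to 4.98 in ob/ob and 1.26 to 2.72 in ob/+. Of 4 hepatocyte markers tested only *Cyp2e1* was lower, at -4.08 ± 0.23 and a mean intensity of 19.1, with sums of 1.76 to 3.51 in ob/ob and 23.6 to 29.0 in ob/+. *Alb*, *Ttr* and *Apoa1* had mean intensities of 0.159, 0.631 and 0.143 and log2 fold changes of 0.02, 0.09 and -0.06.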
